A study of Mus musculus with 6 samples.

Results

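Endothelial cells are recognised by proteins on their surface, and 10 genes for such proteins are described here in cultured bEnd.3 cells with and without added mitochondria. The 10 genes are Pecam1, Cd34, Eng, Vwf, Mcam, Emcn, Icam2, Cd93, Robo4 and Ace, chosen by name and found by their Ensembl identifiers among 55335 in all. All 10 were present in the deposited values, and 4 of them (Cd34, Eng, Ace and Mcam) passed the filter on low values, as did 12639 genes of the whole series. RNA came from 3 libraries of control cells (Ctrl), which received 100 µl of medium, and 3 libraries of cells given mitochondria from primary mouse astrocytes in the same volume (Mito_T), collected after 24 h. Both groups were bEnd.3, a line of mouse brain endothelium that polyomavirus middle T antigen made immortal, labelled wild type, so every library came from the same transformed line. The series concerns how astrocytes may act on the blood-brain barrier by passing on mitochondria. The labels do not state whether replicate libraries come from separate cultures, and the spread behind the p-values may therefore be technical only.

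The surface of an endothelial cell carries adhesion proteins that hold neighbouring cells together and guide leukocytes, sialomucins that coat the luminal face, receptors for growth and guidance cues, and enzymes that act on circulating peptides. PECAM-1, von Willebrand factor and ICAM-2 are among the standard markers of differentiated endothelium in the brain as elsewhere. Others are shared with further cell types: CD34 is also carried by blood progenitors and some stromal cells, endoglin by mesenchymal stromal cells, and MCAM by pericytes and smooth muscle. ACE is bound to the luminal membrane of endothelium and of some epithelia.

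Promoter sequences are shown for 4 of the genes. Cd34 and Ace are the markers that rose with mitochondria, and Emcn and Robo4 are markers near 0 in every library. Each is 300 bases around an annotated RefSeq start (250 before, 50 after) on GRCm38.p6, printed 5′ to 3′, with each CpG in capitals.
Cd34, chr1:194938571-194938870, plus strand: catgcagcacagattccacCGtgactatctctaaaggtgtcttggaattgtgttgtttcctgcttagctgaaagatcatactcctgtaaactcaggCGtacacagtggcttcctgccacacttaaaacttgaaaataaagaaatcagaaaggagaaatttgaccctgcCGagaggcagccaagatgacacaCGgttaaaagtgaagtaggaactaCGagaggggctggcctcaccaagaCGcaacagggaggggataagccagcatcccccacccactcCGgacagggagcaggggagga
Ace, upstream start, chr11:105967698-105967997, plus strand: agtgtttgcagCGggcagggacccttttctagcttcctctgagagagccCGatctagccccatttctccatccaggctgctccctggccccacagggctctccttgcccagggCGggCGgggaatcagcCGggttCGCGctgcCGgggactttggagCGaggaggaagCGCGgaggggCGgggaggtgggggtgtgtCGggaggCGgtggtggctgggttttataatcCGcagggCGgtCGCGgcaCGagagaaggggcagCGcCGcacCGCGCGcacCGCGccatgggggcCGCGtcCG
Emcn, chr3:137340828-137341127, plus strand: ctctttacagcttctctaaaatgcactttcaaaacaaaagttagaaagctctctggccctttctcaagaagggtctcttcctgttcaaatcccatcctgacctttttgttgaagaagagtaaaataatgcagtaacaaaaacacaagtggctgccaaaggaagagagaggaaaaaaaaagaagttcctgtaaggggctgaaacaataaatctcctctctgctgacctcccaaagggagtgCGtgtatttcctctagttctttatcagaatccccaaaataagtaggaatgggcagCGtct
Robo4, chr9:37401722-37402021, plus strand: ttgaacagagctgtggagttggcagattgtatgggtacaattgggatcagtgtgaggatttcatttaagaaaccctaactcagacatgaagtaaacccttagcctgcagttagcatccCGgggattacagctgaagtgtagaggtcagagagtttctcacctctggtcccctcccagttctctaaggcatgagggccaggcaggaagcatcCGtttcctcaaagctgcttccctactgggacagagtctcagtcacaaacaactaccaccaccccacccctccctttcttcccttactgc
The Cd34 window held 7 CpG, the median of the 32851 promoters of this length in the table, and the Eng window 6. The upstream Ace window and the Mcam window held 29 each, more than 87.1% of all promoters, whereas the Emcn and Robo4 windows held 2 each, with 14.1% of promoters holding fewer. Ace has a further start inside the gene (chr11:105974939-105975238), whose window also held 2. The order of CpG number was not the order of level: Cd34 and Eng, the most abundant markers, lay at or just under the median, and Ace and Mcam, with many CpG, were at much lower levels. The ETS core GGAA, read on both strands, was in all 7 windows of the 6 genes found, 5 times in Cd34, 3 times in upstream Ace and 6 times in Emcn, and in 96% of all promoters. The longer ETS word ACCGGAAG and the GATA word AGATAA, also on both strands, were in none of the 7, and in 2.3% and 11.2% of all promoters. These matches describe letters only. Pecam1, Vwf, Icam2 and Cd93 were not matched.

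The deposited values were read as FPKM, fragments scaled to transcript length and to depth, so that levels can be compared between genes. The values implied depths of 17200000 to 21300000 fragments in the control libraries and 21900000 to 27300000 in the mitochondria libraries, which were thus deeper without overlap. Across the 11842 genes at 1 FPKM or more throughout, library pairs had a Pearson correlation of 0.983 to 0.994 (a figure across genes, which are no independent replicates). Of the genes tested, 1.12% were called changed (0.467% higher and 0.649% lower with mitochondria) by limma with Benjamini-Hochberg adjustment over all of them, and in 21.0% the groups did not overlap, 9.62% with the mitochondria libraries higher. Before adjustment, 13.9% had a p under 0.05.

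The 10 markers spanned a mean level of 70.2 FPKM for Cd34 to 0.0270 FPKM for Robo4. Their order by mean over the 6 libraries was Cd34, Eng, Ace, Mcam, Icam2, Emcn, Pecam1, Vwf, Cd93 and Robo4. Cd34 and Eng, at 70.2 and 61.1 FPKM, overlapped in range and lay above 97.5% and 97.0% of protein-coding genes. A wide step separated Eng from Ace (4.39 FPKM) and Mcam (4.28 FPKM), which overlapped each other. Mcam in turn stood apart from Icam2 (0.859 FPKM), and Icam2 from Emcn (0.212 FPKM). From Emcn down, through Pecam1 (0.189 FPKM), Vwf (0.136 FPKM) and Cd93 (0.0802 FPKM) to Robo4, each gene overlapped the next. Neighbours in that order were not resolved beyond the spread between libraries, while the lowest libraries of Emcn and Pecam1 (0.165 and 0.131 FPKM) lay above the highest of Cd93 and Robo4 (0.123 and 0.0764 FPKM). These 5 genes stayed under 0.3 FPKM in every library.

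**Figure D1:**
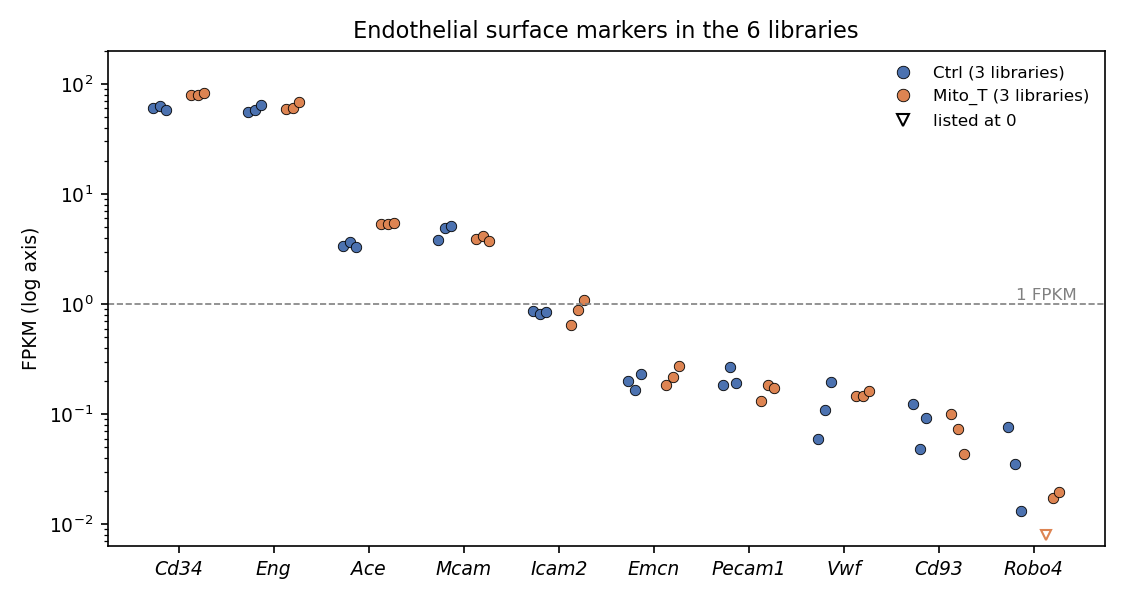
FPKM of the 10 markers (log axis) in the 3 control and 3 mitochondria libraries, 1 point per library, ordered by mean; the dashed line marks 1 FPKM and the open triangle a library listed at 0. Cd34 and Eng lie between 55.5 and 82.2 FPKM, Ace and Mcam between 3.31 and 5.40 FPKM, and Emcn, Pecam1, Vwf, Cd93 and Robo4 under 0.3 FPKM.

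The labelled cell type was therefore only partly borne out by its markers, in both groups alike. Pecam1, Vwf, Emcn, Cd93 and Robo4 were near 0, and so were Cdh5 (VE-cadherin, the adherens junction protein of endothelium), at 0.0346 FPKM on average, and Cldn5, at 0.0340 FPKM. Of 35 other surface genes of endothelium, 26 were tested and 7 stayed under 0.3 FPKM in every library. Not all of the 35 are particular to endothelium: Cd248, known from fibroblasts and pericytes, was at 59.9 FPKM on average. Those expressed included the angiopoietin-receptor relative Tie1 at 5.61 FPKM and the VEGF receptors Flt1 and Kdr at 8.89 and 3.47 FPKM. Among 19 markers of fibroblasts, pericytes and smooth muscle, 12 stayed under 1 FPKM in every library. The other 7 were tested and 1 was called, beside 1.12% of all genes tested. It was Col1a1, at 138 ± 2.45 and 83.9 ± 3.19 FPKM (SD, n = 3 each, limma adjusted p = 0.00547). The summed level of all 19 was 442 to 478 FPKM in the controls and 393 to 431 FPKM with mitochondria, led by Col3a1 with 52.0% of the sum. Col1a2, Dcn and Lum were at 0.152, 0.773 and 0.411 FPKM on average, and Thy1 and Cspg4 were at or near 0. In RNA from whole cultures, fewer cells of a type and less RNA per cell cannot be told apart.

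Among the sialomucins and sugar-bearing surface proteins, Cd34 rose with mitochondria. CD34 is a heavily glycosylated transmembrane sialomucin that modulates adhesion and can present ligands to L-selectin. Cd34 (ENSMUSG00000016494, chromosome 1, 194938819 to 194961279, plus strand, GRCm38) was at 59.8, 63.0 and 58.0 FPKM in control replicates 1 to 3 and at 79.3, 78.9 and 82.2 FPKM in mitochondria replicates 1 to 3. Every mitochondria library was above every control library, by more than the spread within either group. The means were 60.3 ± 2.49 and 80.1 ± 1.84 FPKM (SD, n = 3 each), 32.9% higher with mitochondria. On the log2(FPKM + 1) scale, where the fold of low genes is understated, the change was 0.41 (SE 0.05, 95% interval 0.28 to 0.53, limma adjusted p = 0.0265), the 52nd smallest p of the 12639. The size of the change stayed between 0.38 and 0.44 in all 15 other settings, while the call did not. Without control replicate 1 or 2 the limma adjusted p was 0.0556 or 0.0827, and without mitochondria replicate 1, 2 or 3 it was 0.1497, 0.1101 or 0.0941. The call held without control replicate 3 (limma adjusted p = 0.0495). It was also lost with no filter on low values (0.0927). An antisense transcript, Gm16897, overlaps exons of Cd34, and the sources used here do not state whether counting used strand. Its level was 0.831 ± 0.0887 and 0.895 ± 0.183 FPKM (SD, n = 3 each), far below that of Cd34.

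The nearest relatives of CD34 did not share its level. Podxl, which encodes the sialomucin podocalyxin, was at 6.08 ± 1.29 and 6.72 ± 0.815 FPKM in control and mitochondria libraries (SD, n = 3 each), with overlapping groups, and Podxl2, which encodes endoglycan, stayed between 0.0263 and 0.101 FPKM. Emcn, which encodes endomucin, a sialomucin of capillary and venous endothelium, was at 0.202, 0.165 and 0.232 FPKM in the controls and at 0.184, 0.217 and 0.274 FPKM with mitochondria. The Emcn groups overlapped (exact two-sided permutation p = 0.5, where 3 against 3 cannot give less than 0.1).

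**Figure D2:**
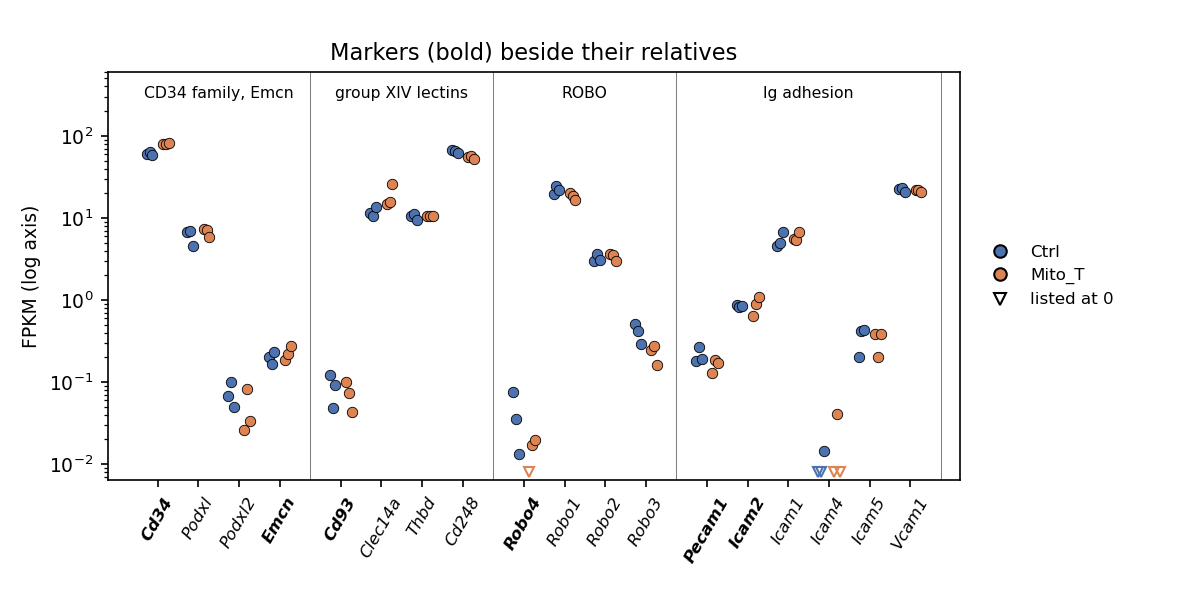
FPKM (log axis) of the markers, in bold, beside related genes, 1 point per library, with open triangles for libraries listed at 0. Cd34 lies above Podxl, Podxl2 and Emcn, while Cd93 and Robo4 lie under relatives such as Cd248 and Robo1.

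The enzyme gene among the markers also rose. ACE, angiotensin-converting enzyme, cleaves angiotensin I to angiotensin II and degrades bradykinin. Ace (ENSMUSG00000020681, chromosome 11, 105967945 to 105989964, plus strand) was at 3.34, 3.64 and 3.31 FPKM in the controls and at 5.30, 5.34 and 5.40 FPKM with mitochondria. The groups were fully separate, and the mitochondria libraries lay closer together than the controls. Means were 3.43 ± 0.186 and 5.35 ± 0.0517 FPKM (SD, n = 3 each), 55.9% higher with mitochondria. The log2 change was 0.52 (SE 0.06, 95% interval 0.38 to 0.66, limma adjusted p = 0.0208), larger in size than that of 98.0% of genes tested. It lay between 0.50 and 0.64 in the 14 other settings that included Ace. The Ace call was lost without control replicate 2 (limma adjusted p = 0.0721) and without mitochondria replicate 1, 2 or 3 (0.119, 0.10005 and 0.0775), and held without control replicate 1 or 3 (0.0485 and 0.0474). It was also lost with no filter on low values (0.0734). An antisense gene over Ace, Gm11651, was listed at 0 in all 6 libraries. The values are per gene, so the transcripts from the upstream start and from the start inside the gene, known from testis, are not separated.

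**Figure D3:**
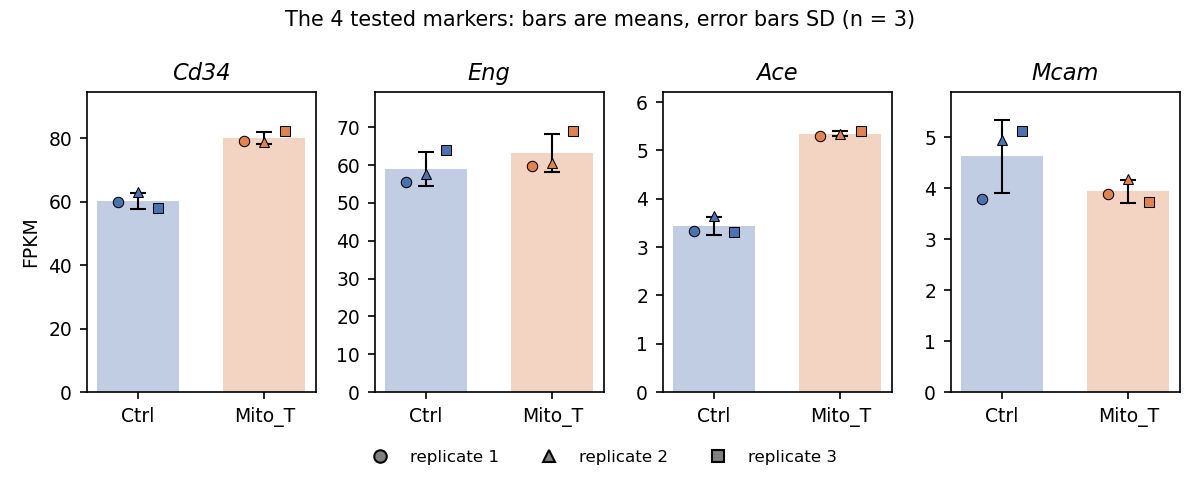
FPKM of the 4 tested markers in each group; bars are means, error bars SD (n = 3) and points the replicates, on axes that start at 0. The groups are separate for Cd34 and Ace and overlap for Eng and Mcam.

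The other genes of the renin-angiotensin and kinin system did not pass the test. Of 18 listed, 17 were measured and 8 tested, with 0 called in limma and 1 under 0.05 before adjustment, beside 13.9% of all genes tested. That gene was Agtr1a, the angiotensin II type 1a receptor, at 2.90 ± 0.530 and 3.78 ± 0.492 FPKM (SD, n = 3 each) and with a limma adjusted p of 0.343. Agt, the precursor of the peptides, was at 1.202 ± 0.370 and 1.45 ± 0.197 FPKM (SD, n = 3 each). Ren1, for renin, stayed between 0.0811 and 0.332 FPKM. Mme, for neprilysin, was at 7.31 ± 0.936 and 6.13 ± 0.840 FPKM (SD, n = 3 each). The median log2 change of the 8 was −0.03, beside −0.01 for all genes tested.

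Cd34 and Ace thus made 2 of the 4 tested markers called, both higher, where 0.467% of all genes tested were called higher. The members had been chosen with results for these data known, so this count is a description. Several measured quantities moved with the groups in the same libraries: the mitochondria libraries were deeper, and the summed fibroblast and mural markers were lower in each of them. On average Col1a1 alone, at 138 and 83.9 FPKM in control and mitochondria libraries, fell by more FPKM than that sum did. The 7 tested genes of that list did not move one way: 4 had positive log2 changes, with a median of 0.07. Pdgfra was at 18.4 ± 0.756 and 22.6 ± 0.587 FPKM, Des at 4.97 ± 0.595 and 6.65 ± 1.04 FPKM, and Acta2 at 1.64 ± 0.107 and 2.18 ± 0.215 FPKM (SD, n = 3 each), against the fall of Col1a1. Col3a1, the largest part of the sum, was at 220 ± 7.34 and 231 ± 15.6 FPKM, and Pdgfrb at 59.8 ± 10.6 and 51.7 ± 4.89 FPKM (SD, n = 3 each), both with overlapping groups. Summed astrocyte markers were 43.8 to 93.9 FPKM in the controls and 64.4 to 87.4 FPKM with mitochondria, with 5 of 12 tested and Sox9, Aqp4 and Gjb6 listed at 0 throughout. None of the 5 was called, and 1 was under 0.05 before adjustment in limma. Separate groups, higher with mitochondria, were seen for Aldoc at 14.1 ± 1.61 and 17.9 ± 2.28 FPKM, Aldh1l1 at 0.391 ± 0.0792 and 1.06 ± 0.0910 FPKM and Slc1a2 at 0.0476 ± 0.0304 and 0.122 ± 0.0471 FPKM (SD, n = 3 each). Of all genes tested, 9.62% had such groups, and Aldh1l1 and Slc1a2 were under the filter. Higher on average, with overlapping groups, were Ndrg2 at 19.6 ± 7.69 and 25.1 ± 9.86 FPKM and Fabp7 at 3.10 ± 0.815 and 3.18 ± 0.569 FPKM (SD, n = 3 each). So was Gfap, also under the filter, at 0.0771 ± 0.103 and 0.128 ± 0.0667 FPKM (SD, n = 3 each). Lower on average, with overlapping groups, were Gja1 at 34.5 ± 19.7 and 24.4 ± 1.21 FPKM, Slc1a3 at 0.105 ± 0.0547 and 0.0522 ± 0.0480 FPKM and S100b at 1.001 ± 0.349 and 0.944 ± 0.335 FPKM (SD, n = 3 each). Summed blood cell markers were 224 to 272 and 182 to 208 FPKM, of which Tmem119 alone made 99.7%, with 1 of 12 tested. Ptprc, the pan-leukocyte marker, was listed at 0 in every library. Summed epithelial markers were 6.45 to 7.48 and 5.47 to 5.86 FPKM, with 2 of 8 tested, and Cdh1 and Epcam were listed at 0. The part of depth and of these markers in the 2 rises was not tested.

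**Figure D4:**
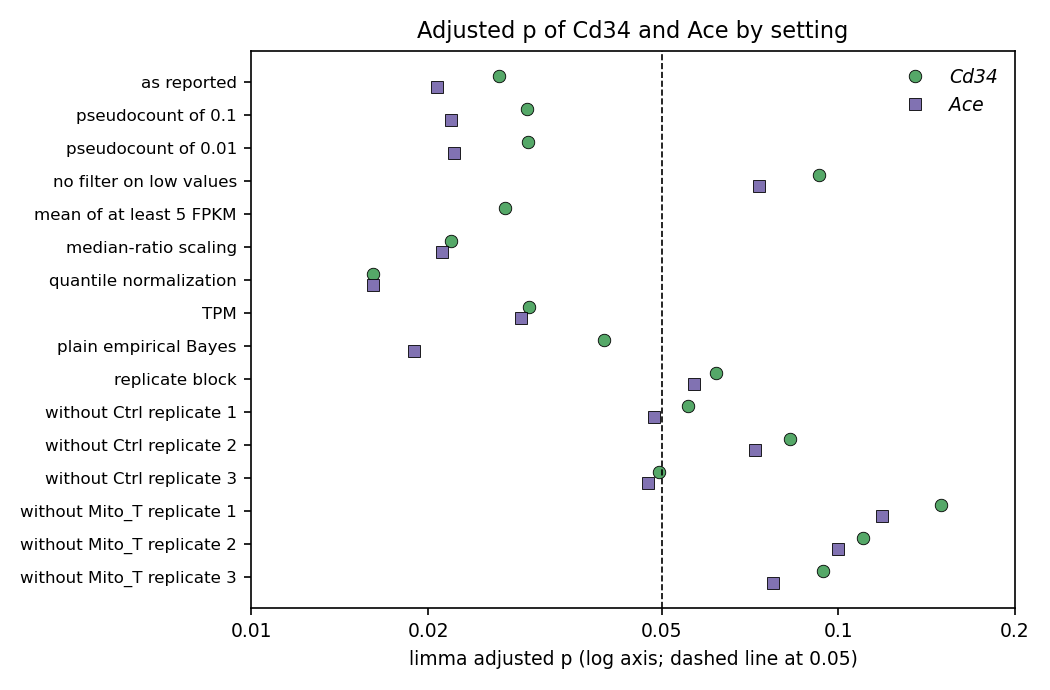
limma adjusted p (log axis) of Cd34 and Ace as reported and under 15 other settings, with the threshold of 0.05 dashed; Ace has no point at a mean of at least 5 FPKM, where it is not tested. Both lie under 0.05 with the other pseudocounts and scalings, and most settings without 1 library lie above it.

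By the root mean square difference of the 6 log2(FPKM + 1) values, each gene centred on its own mean, the gene most like Cd34 among 7307 was Elmo1, an engulfment and motility adaptor (difference 0.0298). It was at 7.11 ± 0.155 and 9.81 ± 0.355 FPKM (SD, n = 3 each). C1rl, a complement protease relative, followed at 0.0402, and Man1a, a Golgi mannosidase that trims N-glycans, at 0.0419. Closest to Ace were Emp2, an epithelial membrane protein (0.0557), Man1a (0.0581) and Cd34 itself (0.0595). The 6 libraries are the only points behind these differences, and 17 genes lay nearer to Cd34 than Ace did.

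Eng, the most abundant marker after Cd34, did not pass the test. It encodes endoglin, a co-receptor that binds BMP9 and BMP10 and acts with the receptor ALK1. Eng (ENSMUSG00000026814, chromosome 2, 32646595 to 32682669, plus strand) was at 55.5, 57.6 and 64.0 FPKM in the controls and at 59.7, 60.6 and 69.0 FPKM with mitochondria. Replicate 3 was the highest of its group in both, and the groups overlapped. Means were 59.0 ± 4.47 and 63.1 ± 5.08 FPKM (SD, n = 3 each), a log2 change of 0.09 (95% interval −0.10 to 0.28, limma adjusted p = 0.664). Fpgs, on the opposite strand with overlapping exons, was at 6.84 ± 0.268 and 6.74 ± 0.388 FPKM (SD, n = 3 each).

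Around endoglin, 21 of 26 listed ligands, receptors, SMAD proteins and targets were tested, 0 were called in limma and 1 was under 0.05 before adjustment (13.9% over all genes). Acvrl1, which encodes ALK1, was at 13.1, 13.0 and 12.1 FPKM in the controls and at 13.1, 11.98 and 7.67 FPKM with mitochondria, so mitochondria replicate 3 stood below the rest. Bmpr2, the type II receptor, was at 5.28 ± 1.26 and 5.70 ± 0.0384 FPKM, and Tgfbr3, for betaglycan, the relative of endoglin, at 52.7 ± 1.96 and 50.1 ± 0.728 FPKM (SD, n = 3 each). Gdf2, the gene of BMP9, was listed at 0 in all libraries. The smallest p of the list was that of Mmp14, for the membrane protease that sheds endoglin, at 73.1 ± 7.03 and 59.8 ± 3.22 FPKM (SD, n = 3 each, limma adjusted p = 0.197). The list's median log2 change was −0.04.

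Among the adhesion proteins of the immunoglobulin family, Mcam was the 1 marker tested. MCAM, or CD146, binds laminin chains and other partners at cell junctions. Mcam (ENSMUSG00000032135, chromosome 9, 44134469 to 44142727, plus strand) was at 3.80, 4.95 and 5.12 FPKM in the controls and at 3.89, 4.19 and 3.74 FPKM with mitochondria. Control replicate 1 lay among the mitochondria libraries, so the groups overlapped. Means were 4.62 ± 0.720 and 3.94 ± 0.231 FPKM (SD, n = 3 each), a log2 change of −0.18 (95% interval −0.43 to 0.07, limma adjusted p = 0.509). In all 14 other settings that included Mcam, the change lay between −0.29 and −0.11 and was not called.

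Of 13 tested relatives and partners of CD93, CD34 and MCAM, 1 was called, beside 1.12% of all genes tested. The called gene was Lama4, for the laminin chain that MCAM binds. It was at 15.7, 15.3 and 14.4 FPKM in the controls and at 10.6, 11.1 and 9.42 FPKM with mitochondria, and fell by 0.51 (log2 change, SE 0.07, limma adjusted p = 0.0324). It lost the call without any 1 of the 6 libraries, with limma adjusted p-values of 0.0835, 0.136 and 0.0534 without control replicates 1 to 3 and 0.153, 0.0951 and 0.0815 without mitochondria replicates 1 to 3. With no filter on low values the limma adjusted p was 0.114. The galectin gene Lgals1, whose product binds MCAM glycans, was at 3250 ± 178 and 3029 ± 30.1 FPKM (SD, n = 3 each). The median log2 change of the 13 was −0.07.

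Icam2, a ligand of the leukocyte integrin LFA-1 (ENSMUSG00000001029, chromosome 11, 106377656 to 106388075, minus strand), lay just under the filter of 1 FPKM in at least 3 libraries. It was at 0.857, 0.821 and 0.844 FPKM in the controls and at 0.645, 0.889 and 1.10 FPKM with mitochondria. The mitochondria libraries fell on both sides of the controls (exact two-sided permutation p = 0.7). Pecam1, a homophilic adhesion protein of endothelial junctions (ENSMUSG00000020717, chromosome 11, 106654217 to 106750628, minus strand), was at 0.183, 0.268 and 0.192 FPKM in the controls and at 0.131, 0.186 and 0.172 FPKM with mitochondria. Those groups overlapped too (exact two-sided permutation p = 0.2). Their inducible relatives were higher: Icam1 was at 5.43 ± 1.21 and 5.94 ± 0.784 FPKM and Vcam1 at 22.3 ± 1.44 and 21.6 ± 0.848 FPKM (SD, n = 3 each), while Icam4 was listed at 0 in 4 of 6 libraries. Of 16 listed adhesion relatives and PECAM-1 partners, 12 were tested, 0 were called in limma and 4 were under 0.05 before adjustment (13.9% over all genes). Alcam, for a relative of MCAM, had the smallest p, at 3.21 ± 0.0759 and 4.204 ± 0.265 FPKM (SD, n = 3 each, limma adjusted p = 0.0969). The median log2 change of the 12 was 0.11.

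Vwf encodes von Willebrand factor, which is stored in Weibel-Palade bodies and captures platelets. Vwf (ENSMUSG00000001930, chromosome 6, 125546774 to 125686679, plus strand) was at 0.06003, 0.108 and 0.195 FPKM in the controls and at 0.147, 0.146 and 0.161 FPKM with mitochondria. The controls alone covered the whole range (exact two-sided permutation p = 0.5). Of 19 listed genes of Weibel-Palade bodies and partners, 10 were tested, 0 were called in limma and 2 were under 0.05 before adjustment (13.9% over all genes). Of the 19, 9 stayed under 1 FPKM in every library, Edn1 among them at 0.312 FPKM on average. RNA of others was present: Angpt2 was at 26.4 ± 3.43 and 30.6 ± 4.84 FPKM, Plat, for tissue plasminogen activator, at 11.7 ± 0.921 and 11.8 ± 0.769 FPKM, and Cd63 at 140 ± 10.4 and 139 ± 1.65 FPKM (SD, n = 3 each). Selp, for P-selectin, stayed between 0.0563 and 0.353 FPKM. The smallest p was that of Timp3, at 36.6 ± 6.03 and 28.6 ± 3.03 FPKM (SD, n = 3 each, limma adjusted p = 0.307), and the list's median log2 change was 0.02.

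The receptor genes Cd93 and Robo4 were the lowest of the markers. CD93 is a C-type lectin receptor that binds multimerin-2 in the endothelial matrix. Cd93 (ENSMUSG00000027435, chromosome 2, 148436640 to 148443563, minus strand) was at 0.123, 0.0488 and 0.0927 FPKM in the controls and at 0.101, 0.0730 and 0.0431 FPKM with mitochondria, with overlapping groups (exact two-sided permutation p = 0.7). At the implied depths and the full exonic length of 6677 bases, these values stand for 6.05 to 18.5 fragments per library. Mmrn2, the gene of its ligand, was as low, between 0.0357 and 0.133 FPKM.

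The 3 other members of the same lectin group were expressed. Cd248, for endosialin, a protein known from fibroblasts and pericytes, was at 67.1, 66.2 and 62.6 FPKM in the controls and at 54.6, 56.4 and 52.2 FPKM with mitochondria, without overlap but not called (limma adjusted p = 0.0897). Thbd, for the anticoagulant receptor thrombomodulin, was at 10.4 ± 0.924 and 10.6 ± 0.0858 FPKM (SD, n = 3 each). Clec14a was at 11.6, 10.6 and 13.7 FPKM in the controls and at 14.6, 15.5 and 26.0 FPKM with mitochondria, where replicate 3 stood above the others.

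ROBO4 is a roundabout receptor of endothelium that works with UNC5B in vessel stability. Robo4 (ENSMUSG00000032125, chromosome 9, 37401897 to 37415115, plus strand) was at 0.0764, 0.0351 and 0.0133 FPKM in the controls and at 0, 0.0173 and 0.0198 FPKM with mitochondria. At the full exonic length of 5302 bases this is between 0 and 6.96 fragments per library, and a difference between groups was not detectable at this depth (exact two-sided permutation p = 0.3). Robo1 was at 21.9 ± 2.59 and 18.5 ± 1.73 FPKM, Robo2 at 3.23 ± 0.384 and 3.39 ± 0.355 FPKM, and Slit2, a ligand of both, at 16.4 ± 4.87 and 14.4 ± 2.35 FPKM (SD, n = 3 each). Of 14 listed ROBO and SLIT genes and partners, 12 were tested, 0 were called in limma and 2 were under 0.05 before adjustment (13.9% over all genes). Pxn, for the ROBO4 tail partner paxillin, had the smallest p, at 35.9 ± 1.29 and 31.9 ± 0.710 FPKM (SD, n = 3 each, limma adjusted p = 0.204), and the list's median log2 change was −0.08.

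Of the 26 tested genes among other endothelial surface proteins, 0 were called in limma, while 6 were under 0.05 before adjustment, 1 higher and 5 lower, beside 13.9% of all genes tested. In 6 of the 26 the groups did not overlap, beside 21.0% of all genes tested. The smallest p was that of Cd36, a fatty acid and thrombospondin receptor, at 5.96, 4.82 and 3.81 FPKM in the controls and at 2.83, 2.77 and 2.55 FPKM with mitochondria (limma adjusted p = 0.0887). Without control replicate 3 the Cd36 change was called (limma adjusted p = 0.0425). Flt1 and Kdr had log2 changes of −0.33 and −0.31 and limma adjusted p-values of 0.114 and 0.143. The median log2 change of the 26 was −0.03, with 10 of them positive.

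**Figure D5:**
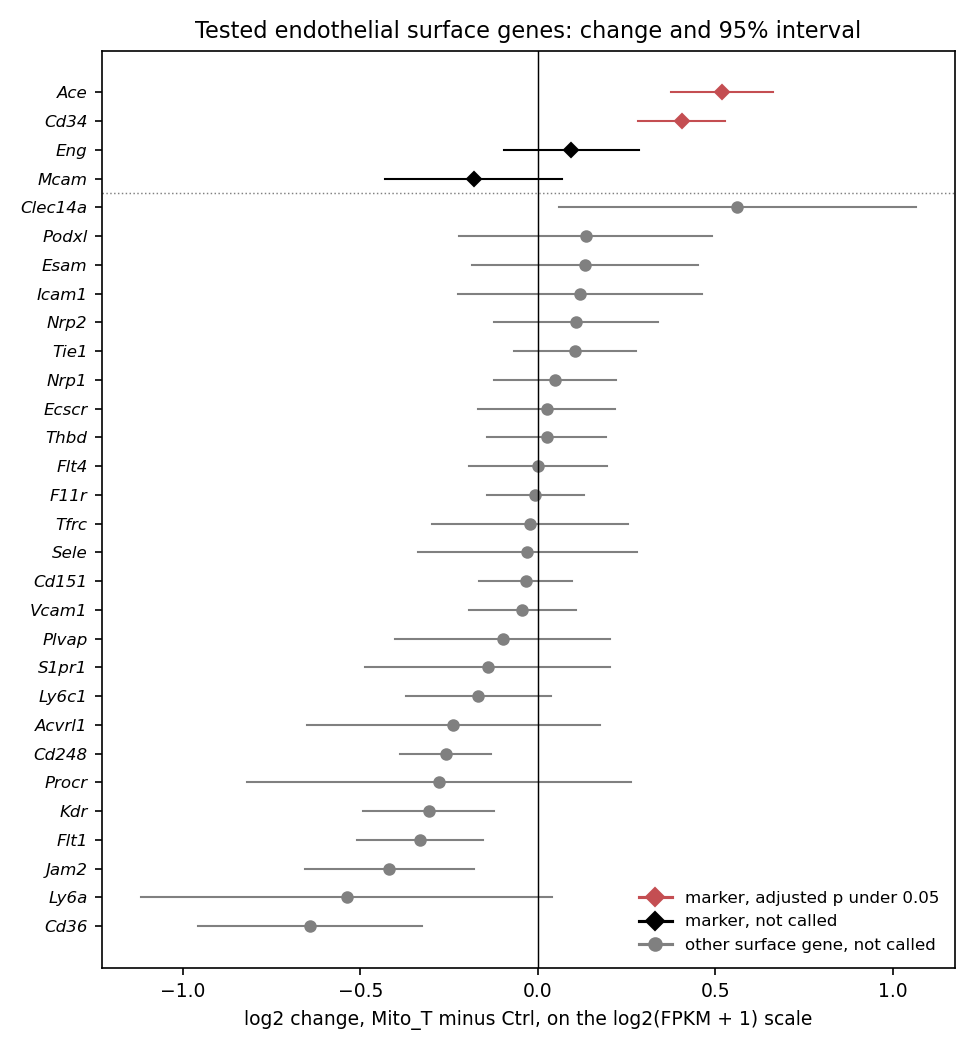
log2 change (Mito_T minus Ctrl, on the log2(FPKM + 1) scale) with its 95% interval for the 4 tested markers (diamonds) and 26 other endothelial surface genes (circles). Ace at 0.52 and Cd34 at 0.41 are called, and the other genes are not.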

How the data were processed

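Strand-specific mRNA libraries of 6 bEnd.3 samples were sequenced, per the labels' protocols. The submitters' processing notes name FastQC 0.11.5, STAR 2.5.3a and StringTie 1.3.1c and the builds mm10 and GRCm38, with no roles or settings. The deposited values, 1 per Ensembl gene and library, were read as FPKM because they are not whole and sum to only 281433 to 297838 per library; the file headers name no unit. Of 55335 identifiers, 55154 matched GENCODE M21, which gave symbols and GRCm38 coordinates.

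Depth was estimated from the step that 1 fragment makes in low values of genes with a single transcript. Only 35.2% to 40.4% of those values were within 0.02 of whole multiples. Whole reads could thus not be recovered, and count models were left out.

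limma 3.58.1 in R 4.3.3 was fitted on log2(FPKM + 1) for group alone, with trend and robust variance, over the 12639 genes that reached 1 FPKM in 3 libraries or more. Two-sided p-values were adjusted by Benjamini-Hochberg over all 12639, and a gene was called at an adjusted p under 0.05. Markers under the filter were compared by exact permutation. Named were all 10 markers, called genes of each list or else the gene with the smallest p, genes at high levels, and the 3 most alike genes at a mean of at least 5 FPKM. Relatives and partners with roles tied to a marker were named after their values were seen. The members and lists were chosen with earlier results of these data known. Tmem27, in the renin-angiotensin list, was not matched, and another gene of that list is not reported here. Of 31-base words in the markers' transcripts, at most 2.78% (Cd34) also occur in another gene. The 15 alternatives were other pseudocounts, filters, scalings and variance fits, the replicate block, and leaving out each library.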

Additional observations from a re-analysis of the deposited data

How the results depend on the processing

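Of all genes tested, 141 were called, and 13 with no filter on low values. With the replicate number as a block there were 56, and with 1 library left out between 14 and 88. Of the markers, 2 were called as reported, 0 with no filter, 1 at a mean of at least 5 FPKM (where Ace is not tested), 0 with the replicate block, and between 0 and 2 with 1 library left out. With the block, the limma adjusted p was 0.0619 for Cd34, 0.0568 for Ace and 0.0509 for Lama4, and with no filter it was 0.0927, 0.0734 and 0.114. By the labels, same-numbered libraries share only a number. The correlation of their deviations from the group means was 0.078, 0.056 and 0.340 for replicates 1, 2 and 3, and only replicate 3 correlated best with its own number. Pairs of a replicate 3 with another number lay between -0.211 and -0.189, so the replicate 3 libraries deviated together. What they share was not tested. The block left Cd34 and Ace at the same log2 change. The cause of these moves was not tested, beyond the fewer samples when a library is left out and the larger number of genes tested with no filter (29365). Log2 changes were refitted in each setting for 19 genes, the tested markers and those that the naming rule took, and none of the 19 turned direction where it was tested. Other genes in the text were not refitted one by one. Among markers under the filter, the difference in FPKM turned sign without 1 library for Cd93 (−0.0156, and 0.00171 without control replicate 1), Icam2 (0.0363, and −0.0737 without mitochondria replicate 3) and Vwf (0.0302, and −0.000412 without control replicate 1). With 3 libraries a group, levels under 0.3 FPKM rest on few fragments, and differences there cannot be resolved.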

Other observations

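Genes beside the markers on the chromosome were read for their values only, in a window of 250 kb on either side chosen with the markers' results known. Near Cd34, 2 genes were tested and 1 was called, beside 1.12% of all genes tested. Plxna2, a semaphorin receptor, was at 3.34 and 5.72 FPKM on average in control and mitochondria libraries, a log2 change of 0.63 (limma adjusted p = 0.0190). Cr1l, a complement regulator, was at 6.71 and 5.58 FPKM (limma adjusted p = 0.127). Ace, Icam2 and Pecam1 lie in the same stretch of chromosome 11. Of 9 tested genes near Ace, 1 was called, again beside 1.12% of all genes tested. It was Limd2, at 14.4 and 19.8 FPKM (log2 change 0.44, limma adjusted p = 0.0324), which also lies within the window of Icam2. Among 8 tested genes near Pecam1, 0 were called in limma and 0 had an unadjusted p under 0.05. Near Eng, 17 genes were tested, 0 were called in limma and 3 had an unadjusted p under 0.05, beside 13.9% of all genes tested. The windows of Mcam, Vwf, Cd93, Robo4 and Emcn held 12, 6, 3, 8 and 1 tested genes, with 0 called in limma. In the same order, 1, 3, 0, 1 and 0 of them had an unadjusted p under 0.05, beside 13.9% of all genes tested. Plxna2 and Limd2 were singled out after their values were seen.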
